A study of Homo sapiens with 11 samples.

Results

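The translation initiation factors are described here across 11 exon arrays from human T-REx-293 cells, 6 with an shRNA directed at Tat-SF1 and 5 controls. The set holds 38 genes: the eIF1, eIF2, eIF2B, eIF3, eIF4, eIF5 and eIF6 genes together with the cap-binding homologue EIF4E2 and the inhibitory binding proteins EIF4EBP1 and EIF4EBP2. Members were found by gene symbol, as the probe sets that carry exactly 1 symbol and whose symbol is one of the 38. There were 874 such probe sets of 355799 with 1 symbol in all. Of them 795 were bright enough to use, of 221964 used in all. They gave a gene value to 36 of the 38 genes, of 14579 genes with a value, and left EIF3C and EIF4EBP1 without one.

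The T-REx-293 line derives from HEK293, a line of human embryonic kidney origin, and its inducible plasmids respond to tetracycline. All cells carried a plasmid that encodes green fluorescent protein (GFP) and all were given 2.5 µg/mL tetracycline for 72 h, the controls included. The 4 constructs induced were an empty vector (2 arrays), an shRNA directed at GFP (3 arrays), and 2 shRNAs directed at Tat-SF1, shRNA A and shRNA B (3 arrays each). An shRNA is a hairpin RNA that the cell processes to silence a matching transcript. The series design calls the replicates biological triplicates and states that the empty vector lost its replicate 3 to quality control, and its text pools the first pair of constructs as control (5 arrays) and the other pair as knockdown (6 arrays). Whether a construct rests on 1 clone or on a pool of cells is not stated in the labels. The gene value is the median log2 value of a gene's probe sets on an array, so a difference of gene values is a log2 ratio.

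Initiation factors bring the initiator tRNA, the mRNA and the ribosomal subunits together. In the usual route eIF2 carries the initiator tRNA to the small subunit, eIF2B recharges eIF2 with GTP, eIF3 acts as the scaffold on the small subunit, and the eIF4 factors bind the cap and unwind the leader. Fast-growing lines such as HEK293 make these proteins in abundance. A number of mRNAs for the translation machinery begin with a C followed by a run of pyrimidines (the terminal oligopyrimidine, or TOP, form), through which the mTORC1 kinase and the protein LARP1 adjust their use.

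The start sites of the members were read for that form, because it is the one sequence feature by which transcripts of this machinery are known as a class. RefSeq start sites on GRCh38.p14 were at hand for 31 of the 38 members, and not for EIF2S2, EIF3A, EIF3E, EIF3G, EIF3H, EIF3L and EIF4EBP1. The TOP form, searched only on the transcript's own strand as a C at an annotated first base with at least 4 C or T letters after it, was present at 1 or more starts of 7 members (22.6% of 31), against 6.24% of 15843 protein-coding genes with a start in the same table. The 7 windows run from 10 bases before the start to the first 20 transcribed bases. They lie at chrX:24054946-24054975 on the plus strand for EIF2S3, chr22:36529147-36529176 on the minus strand for EIF3D, chr11:7987327-7987356 (plus) for EIF3F, chr19:38619178-38619207 (plus) for EIF3K, chr11:32583821-32583850 (plus) for EIF3M, chr3:186783567-186783596 (plus) for EIF4A2 and chr12:53006446-53006475 (plus) for EIF4B. In the sequences, written 5′ to 3′, capitals mark the first base and the unbroken pyrimidine run after it.
EIF2S3: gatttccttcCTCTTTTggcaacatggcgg
EIF3D: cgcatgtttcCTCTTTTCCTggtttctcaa
EIF3F: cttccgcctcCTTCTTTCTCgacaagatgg
EIF3K: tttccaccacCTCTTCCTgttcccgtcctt
EIF3M: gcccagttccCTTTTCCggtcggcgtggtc
EIF4A2: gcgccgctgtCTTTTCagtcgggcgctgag
EIF4B: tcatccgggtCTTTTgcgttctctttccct

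A suffix stood in the names of 4 knockdown arrays (shRNA A replicate 3 and all of shRNA B) and of no control, and its meaning is not given in the labels. Suffix and hairpin cannot be told apart for shRNA B. As no control carries the suffix, a pooled fit with it as a block rests on shRNA A replicates 1 and 2 against the 5 controls. No shRNA B array enters that difference. The targeted gene was read first. HTATSF1, which encodes Tat-SF1, averaged 8.50 ± 0.12 (SD, n = 5) on the control arrays against 8.21 ± 0.06 (SD, n = 6) on the knockdown arrays, and fell by 0.30 on the log2 scale (limma, adjusted p = 0.0486). The call was narrow. It held when empty vector replicate 2 was left out (limma, adjusted p = 0.0166) and was lost when any other array was (0.057 to 0.104). It was also lost with the suffix as a block (0.367), the replicate number as a block (0.0604), dim probe sets kept (0.094) and at least 2 probe sets a gene (0.067). With a higher floor (0.00761), the mean of the probe sets (0.0279), quantile normalization (0.0486) and the signal above the array median plus 32 (0.0351) it held. Of the 9 markers listed for the HEK293 line 8 could be measured, with control means from 7.97 to 10.18, and LHX1 could not. Of these 8, 7 had lower knockdown means, among them KRT8 (-0.25, adjusted p = 0.185) and SALL1 (-0.20, adjusted p = 0.0902, the arrays not overlapping), and 2 were lower at an unadjusted p under 0.05. Their summed level was 71.84 to 73.84 on the control and 71.34 to 72.36 on the knockdown arrays, and its part in the members' differences was not tested. NEFM (7.97) and PAX2 (8.18) lay near 7.91, the level around which dim probe sets crowd. The measured markers of fibroblasts, endothelium, liver, blood and squamous lines had control means of 7.91 to 8.12. The 3000 brightest genes averaged 9.324 ± 0.0411 (SD, n = 5) on the control arrays against 9.257 ± 0.0447 (SD, n = 6) on the knockdown arrays (exact two-sided permutation test over 462 splits, p = 0.0303).

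The first comparison asks which initiation factor genes differed between the 6 knockdown and the 5 control arrays. None of the 36 passed at an adjusted p under 0.05 (limma, Benjamini-Hochberg adjustment over 14579 genes), where 0.219% of all genes did. The eIF3 subunits had the largest differences in both directions, from EIF3G at -0.31 to EIF3E at 0.24. Their means were lower in the knockdown arrays for 10 of 12 measured subunits. Over the 36 genes, 26 means were lower (72.2%, against 67.1% of all genes) and 10 were higher (against 32.9%), with a median difference of -0.05 against -0.02 over all genes. At an unadjusted p under 0.05, 9 of the 36 were lower (25%, against 12.8% of all genes) and 1 was higher (2.78%, against 2.39%).

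The members were brighter than most genes, with a median level of 9.43 against 8.21 over all genes. Among genes with a level of at least 9 the shares lay close together: 22.2% of 27 members and 22.3% of 1713 genes were lower at an unadjusted p under 0.05. In that range the median difference was -0.05 for the members and -0.07 for all genes. The share of means that were lower was 66.7% for the members and 73.3% for all genes. Genes of that brightness thus had a median difference as low as that of the initiation factors. The median deviation of the 36 genes from their control means was lowest in shRNA B replicate 1 (-0.18), which was also the dimmest array over the 3000 brightest genes (9.182). It was highest in shRNA B replicate 2 (0.04) and GFP shRNA replicate 1 (0.04), the latter being the brightest array (9.382). The part of brightness in the members' differences was not tested.

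**Figure D1:**
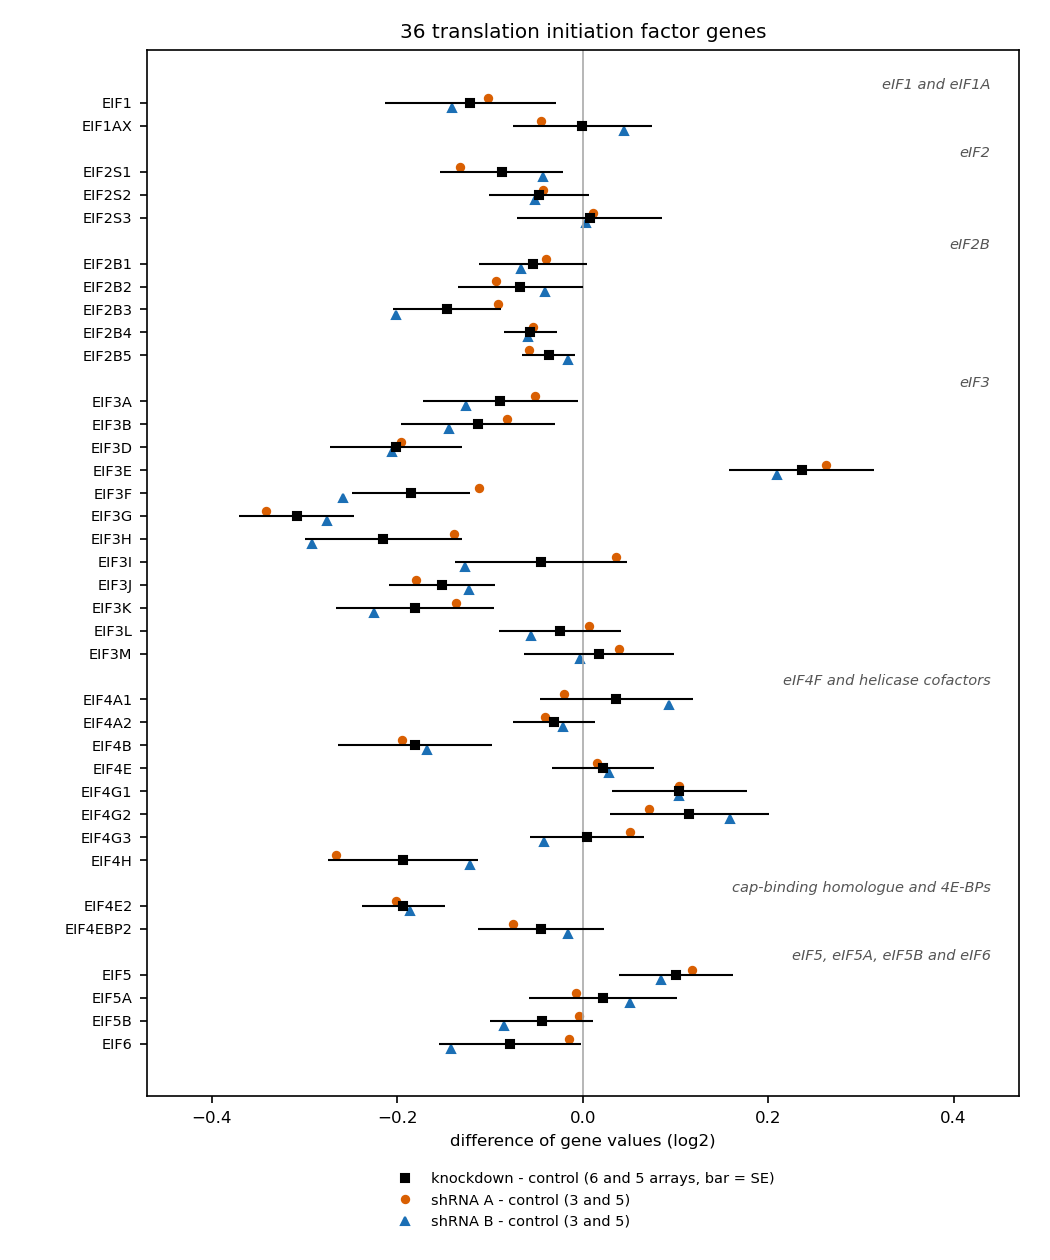
Difference of the gene value (log2) of 36 initiation factor genes, grouped by complex. Squares with bars give knockdown minus control with the standard error, circles shRNA A minus control and triangles shRNA B minus control. EIF3G lies farthest to the left at -0.31 and EIF3E farthest to the right at 0.24.

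Among the eIF3 subunits the lowest difference was that of EIF3G, an RNA-binding subunit that takes part in scanning. Its control values were 10.01 and 9.92 with the empty vector and 9.88, 9.88 and 9.69 with the GFP shRNA. With shRNA A it had 9.53, 9.56 and 9.51, and with shRNA B 9.64, 9.59 and 9.56. No knockdown array reached the lowest control. The difference was -0.31 with a standard error of 0.06 (limma, adjusted p = 0.0524), just outside the threshold. All 12 of its probe sets had lower knockdown means, with differences of -0.03 to -0.49, against 61.5% of all probe sets with a lower mean. In 4 of the 12 all knockdown arrays were below all controls, as in 1.65% of all probe sets and in 3.62% of those with a level of at least 9. The gene was picked by the median of these same probe sets, so their counts are not separate support for its difference.

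The EIF3G result turned on the processing. It passed under 5 of 25 alternatives, among them the mean of the probe sets in place of the median (-0.24, adjusted p = 0.0197) and a higher floor on dim probe sets (-0.30, adjusted p = 0.0236). With the suffix of the array names as a block, the difference of shRNA A replicates 1 and 2 from the controls was -0.33 (limma, adjusted p = 0.328). Over all 25 alternatives the adjusted p lay between 0.0197 and 0.447, and the difference stayed between -0.24 and -0.41.

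EIF3F, a subunit with an MPN domain, was the only other member without overlap. Its values were 9.58 and 9.53 with the empty vector, 9.52, 9.45 and 9.50 with the GFP shRNA, 9.43, 9.43 and 9.36 with shRNA A, and 9.14, 9.24 and 9.41 with shRNA B. The gap between the groups was narrow, from 9.43 to 9.45, and 2 of the 3 shRNA B arrays lay well below the rest. The difference was -0.19 ± 0.06 (SE; limma, adjusted p = 0.181), and -0.09 with the suffix as a block. With EIF3G this made 2 of 36 members without overlap (5.56%), against 2.24% of all genes. Both were lower, as were 2.02% of all genes, while 0.219% were higher. Among genes with a level of at least 9 the shares without overlap were 7.41% of 27 members and 4.67% of 1713 genes.

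EIF3D, which can itself contact the cap of certain mRNAs, had 10.34 and 10.27 with the empty vector and 10.50, 10.31 and 10.49 with the GFP shRNA. Its knockdown values were 10.28, 10.04 and 10.24 with shRNA A and 10.17, 10.09 and 10.27 with shRNA B. The groups met at their edges only, at 10.27 and 10.28. The difference was -0.20 ± 0.07 (SE; limma, adjusted p = 0.191), and -0.10 both with the mean of the probe sets and with centred probe sets.

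EIF3H, the other MPN subunit, had 9.84 and 10.01 with the empty vector, 10.02, 9.74 and 9.90 with the GFP shRNA, 9.84, 9.93 and 9.51 with shRNA A, and 9.69, 9.63 and 9.51 with shRNA B. The low arrays were the 4 with the suffix, and the 2 shRNA A arrays without it lay among the controls. The difference was -0.22 ± 0.08 (SE; limma, adjusted p = 0.237), and -0.01 with the suffix as a block. Without the filter on dim probe sets it turned to 0.06.

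EIF3E, a PCI subunit of the scaffold, went the other way in its gene value. It had 8.76 and 8.89 with the empty vector, 9.13, 8.69 and 8.91 with the GFP shRNA, 9.14, 9.09 and 9.19 with shRNA A, and 8.91, 9.28 and 9.07 with shRNA B. The 3 shRNA A arrays were close together and the controls spread widely, so the groups overlapped. The difference was 0.24 ± 0.08 (SE; limma, adjusted p = 0.173). The probe sets of the gene did not share it: 9 of 19 had a lower mean and 10 a higher one, and the median of their 19 differences was 0.03. The mean of the probe sets in place of the median gave 0.01, and centring each probe set before taking the median gave -0.02.

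**Figure D2:**
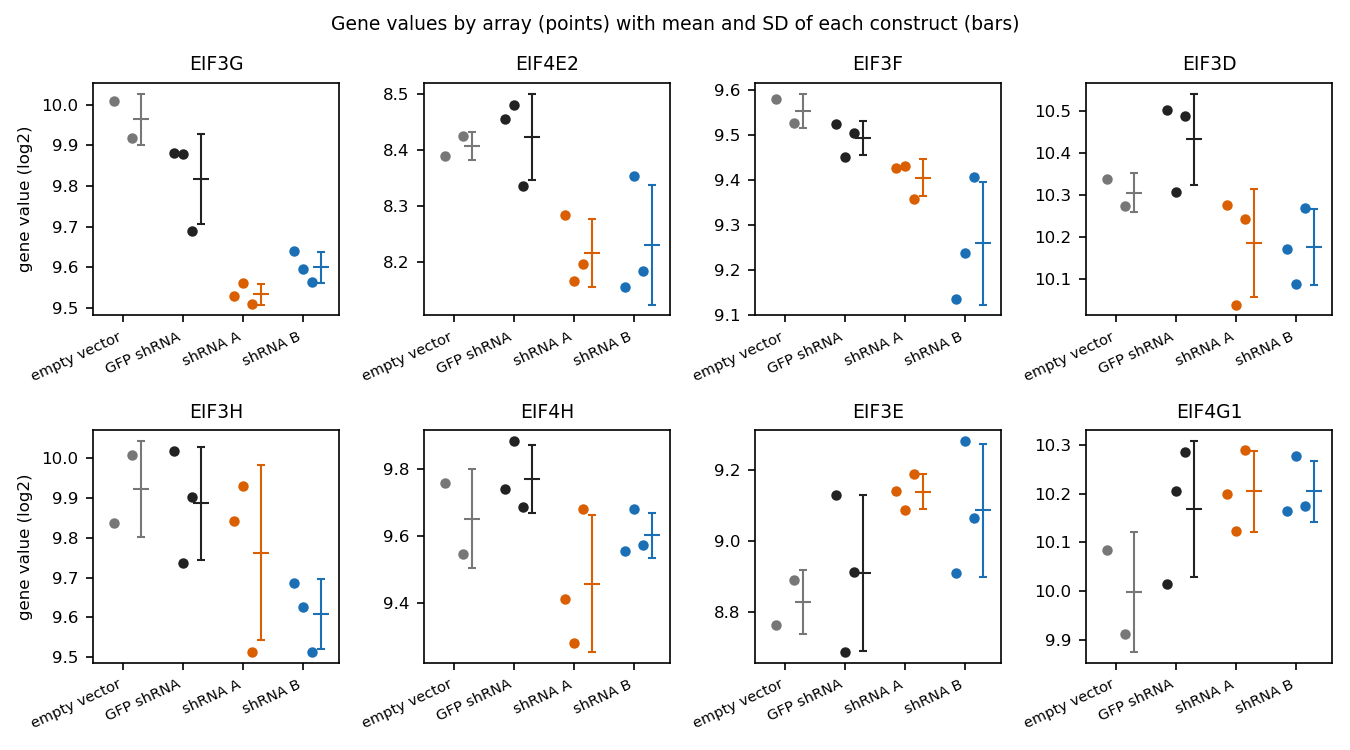
Gene value (log2, vertical axis, a separate range for each gene) of 8 members on each of the 11 arrays, by construct. Points are arrays and bars are the mean and SD of a construct, and only EIF3G and EIF3F show no overlap between the control and the knockdown arrays.

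The other eIF3 subunits had differences between -0.18 and 0.02. EIF3K (-0.18, adjusted p = 0.329) and EIF3J (-0.15, adjusted p = 0.222), an easily detached subunit, were the lowest of these. The EIF3J value was not shared by its probe sets, of which 7 had lower and 9 higher means, and it was -0.015 with the mean of the probe sets and 0.0038 with centred probe sets. EIF3B (-0.11), EIF3A (-0.09), EIF3I (-0.05), EIF3L (-0.02) and EIF3M (0.02) followed, with limma's standard errors from 0.07 to 0.09. The median of the 12 subunits was -0.13, against -0.02 over all genes. It was -0.07 with the mean of the probe sets and -0.08 with the suffix as a block, with 11 and 9 subunits lower, and 8 were lower without the filter on dim probe sets (median -0.07).

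EIF3C, a core subunit, could not be read on its own, because most of its probe sets also match the near-identical copy EIF3CL. It had 2 probe sets with 1 symbol. The one above the floor had 8.06 ± 0.07 (SD, n = 5) on control and 8.02 ± 0.04 (SD, n = 6) on knockdown arrays. The 27 used probe sets that EIF3C and EIF3CL share had a median of 11.31 ± 0.11 (SD, n = 5) on control and 11.17 ± 0.12 (SD, n = 6) on knockdown arrays. Of these 27, 25 had lower knockdown means (61.5% of all probe sets did), with a median difference of -0.16. In 3 all knockdown arrays were below all controls, as in 1.65% of all probe sets and 3.62% of those with a level of at least 9. Probe sets of the same transcripts on the same arrays are not independent readings. The 2 genes cannot be told apart in these probe sets.

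**Figure D3:**
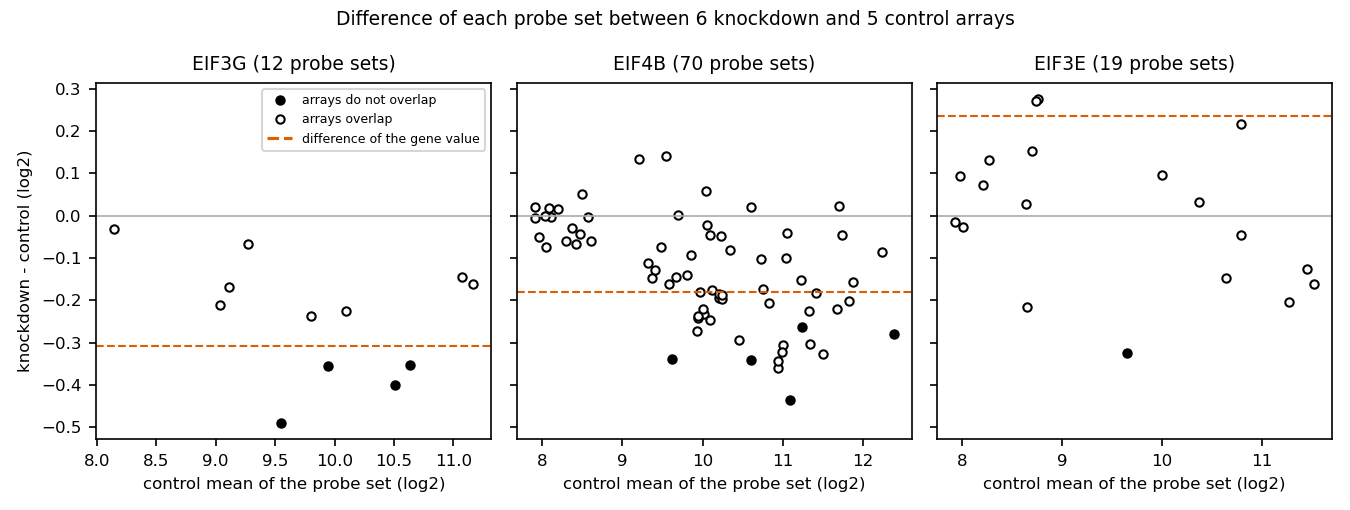
Difference of each probe set between knockdown and control (log2, vertical axis) against its control mean (log2, horizontal axis) for EIF3G, EIF4B and EIF3E. Filled points are probe sets whose knockdown arrays do not overlap the controls, the dashed line is the difference of the gene value, and all 12 EIF3G probe sets lie below 0 while those of EIF3E lie on both sides.

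Among the cap-binding factors and their helicase cofactors the directions were mixed, with 3 of 8 means lower and a median difference of 0.01. EIF4E, the cap-binding protein, differed by 0.02. The helicases EIF4A1 and EIF4A2 differed by 0.04 and -0.03. The cofactors that stimulate the helicase had the lowest values of the group.

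EIF4H, one of these cofactors, had 9.76 and 9.55 with the empty vector, 9.74, 9.88 and 9.69 with the GFP shRNA, 9.41, 9.28 and 9.68 with shRNA A, and 9.56, 9.68 and 9.57 with shRNA B. The lowest values were those of shRNA A replicates 1 and 2, the knockdown arrays without the suffix. The difference was -0.19 ± 0.08 (SE; limma, adjusted p = 0.269), and -0.38 with the suffix as a block (adjusted p = 0.328). EIF4B, the other cofactor, had a difference of -0.18 ± 0.08 (SE; adjusted p = 0.317), with 59 of its 70 probe sets lower (61.5% of all probe sets were) and 5 of them without overlap (1.65%, or 3.62% at a level of at least 9). Its 70 probe sets fell into 9 separate runs of probe set numbers, the largest of 28. The largest run alone, an alternative chosen after seeing the data, gave -0.28 (adjusted p = 0.143).

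The scaffold proteins EIF4G1 and EIF4G2 had the highest differences of this group. EIF4G1 had 10.09 and 9.91 with the empty vector, 10.01, 10.21 and 10.29 with the GFP shRNA, 10.20, 10.12 and 10.29 with shRNA A, and 10.16, 10.28 and 10.17 with shRNA B. The empty vector arrays and GFP shRNA replicate 1 lay below every knockdown array, and the other GFP shRNA arrays lay within the knockdown range. The difference was 0.10 ± 0.07 (SE; limma, adjusted p = 0.531).

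EIF4G2, a relative that lacks the site for the cap-binding protein, had 10.49 and 10.48 with the empty vector, 10.21, 10.52 and 10.59 with the GFP shRNA, 10.35, 10.56 and 10.67 with shRNA A, and 10.64, 10.74 and 10.46 with shRNA B. GFP shRNA replicate 1 and shRNA A replicate 1 were the lowest, and the groups overlapped. The difference was 0.12 ± 0.09 (SE; limma, adjusted p = 0.564), and 0.0005 with the suffix as a block. EIF4G3 differed by 0.0045.

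EIF4E2, a homologue that competes for the cap and represses translation, had the second smallest adjusted p of the set. Its values were 8.39 and 8.42 with the empty vector, 8.45, 8.48 and 8.33 with the GFP shRNA, 8.28, 8.17 and 8.20 with shRNA A, and 8.15, 8.35 and 8.18 with shRNA B. Only shRNA B replicate 2 reached into the control range. The difference was -0.19 ± 0.04 (SE; limma, adjusted p = 0.0729), with 7 of 9 probe sets lower. The gene lay close to the dim level, and the difference moved with the processing. It passed under 1 of 25 alternatives, the higher floor on dim probe sets (-0.25, adjusted p = 0.0282). It was -0.13 with the mean of the probe sets, -0.10 with centred probe sets (adjusted p = 0.0754 and 0.156) and -0.57 on the signal above the array median plus 32 (0.0642), and with the suffix as a block its adjusted p was 0.434.

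The 4E-binding proteins hold the cap-binding protein away from the scaffold until mTORC1 phosphorylates them. EIF4EBP2 differed by -0.05 ± 0.07 (SE; adjusted p = 0.796). EIF4EBP1 had 3 usable probe sets, fewer than the 4 needed. With at least 2 probe sets allowed, its values were 9.83 and 9.03 with the empty vector, 9.57, 8.98 and 9.47 with the GFP shRNA, 9.14, 9.04 and 9.19 with shRNA A, and 8.80, 8.63 and 9.14 with shRNA B. The 2 lowest arrays were shRNA B replicates 1 and 2, and the controls spread over more than the difference. That difference was -0.38 ± 0.15 (SE; limma, adjusted p = 0.252 over 17156 genes).

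The subunits of eIF2 and eIF2B were close to their controls. EIF2S1, the subunit whose phosphorylation shuts eIF2B down, differed by -0.09, EIF2S2 by -0.05 and EIF2S3 by 0.01. All 5 eIF2B subunits had lower means, by between -0.04 (EIF2B5) and -0.15 (EIF2B3), with a median of -0.06. EIF2B3, a catalytic-arm subunit, was the only one of the 8 at an unadjusted p under 0.05 (adjusted p = 0.245). ATF4, a transcription factor whose translation is set by eIF2, had 10.31 ± 0.13 (SD, n = 5) in the controls. It had 10.07 ± 0.11 (SD, n = 3) with shRNA A and 9.74 ± 0.13 (SD, n = 3) with shRNA B. Against the controls ATF4 passed for shRNA B (-0.57, limma, adjusted p = 0.0363) and not in the pooled comparison (-0.40, adjusted p = 0.0802). The shRNA B call held when shRNA A replicate 2 was left out (0.0465) and was lost when any other array was (0.0511 to 0.197). It was also lost with the mean of the probe sets (-0.18, adjusted p = 0.217), with dim probe sets kept (-0.24, 0.452), with a higher floor (-0.29, 0.113), with at least 2 probe sets a gene (0.0605) and with the replicate number as a block (0.0905). With quantile normalization (limma, adjusted p = 0.0293) and the signal above the array median plus 32 (0.027) it held.

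The remaining members act at the start codon or on the large subunit. EIF5, which triggers GTP hydrolysis by eIF2, had 9.06 and 8.91 with the empty vector, 9.06, 9.02 and 9.06 with the GFP shRNA, 9.10, 9.05 and 9.28 with shRNA A, and 8.95, 9.21 and 9.16 with shRNA B. Apart from empty vector replicate 2, the controls lay within a narrow range that the knockdown arrays straddled. The difference was 0.10 ± 0.06 (SE; limma, adjusted p = 0.463). EIF1 and EIF1AX, which keep the scanning ribosome open, differed by -0.12 and -0.0003. EIF5A, EIF5B and EIF6, which act in elongation, subunit joining and the guarding of free large subunits, differed by 0.02, -0.04 and -0.08. The 11 used probe sets that EIF5A shares with EIF5AL1 had a median difference of 0.01, and the 11 that EIF1AX shares with the pseudogene EIF1AP1 had one of -0.17.

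Each shRNA was also set against the same 5 controls. For shRNA A none of the 36 members passed (limma; 0.00686% of all genes did), the smallest adjusted p was 0.157 and 6 were at an unadjusted p under 0.05 (16.7%, against 10.7% of all genes). These were EIF3D, EIF3G, EIF3J, EIF4E2 and EIF4H, lower, and EIF3E, higher. For shRNA B none passed either (0.0686% of all genes did), the smallest adjusted p was 0.165 and 8 were at an unadjusted p under 0.05 (22.2%, against 13.2%). These were EIF2B3, EIF3D, EIF3F, EIF3G, EIF3H, EIF3K and EIF4E2, lower, and EIF3E, higher. EIF3G differed by -0.34 with shRNA A and -0.28 with shRNA B, EIF4E2 by -0.20 and -0.19, and EIF3E by 0.26 and 0.21. The 2 comparisons share their control arrays. All genes are dimmer than the members, and the shares of each shRNA were not set against genes of matched brightness. In the pooled comparison, at a level of at least 9, the shares were 25.9% of 27 members and 24.2% of 1713 genes.

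Set directly against each other, shRNA B and shRNA A gave 0 of 36 members by limma (0% of all genes), with none at an unadjusted p under 0.05 (4.38% of all genes were). The differences between the shRNAs ran from -0.16 to 0.14. Between the control constructs, GFP shRNA against empty vector, 0 of 36 passed by limma (0.00686% of all genes did) and 3 were at an unadjusted p under 0.05 (4.44% of all genes were). EIF2B2 (0.24) and EIF3A (0.25) were higher with the GFP shRNA and EIF3K (-0.25) was lower, each with an adjusted p of 0.948. The largest differences between the control constructs were thus as large as those between knockdown and control, apart from that of EIF3G. The GFP shRNA also had the higher mean for 27 of the 36 members (64.5% of all genes), with a median difference of 0.08 against 0.02 over all genes.

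The series title asks for changes of single exons, which were read from the splicing index, which subtracts the gene value from the log2 value of a probe set array by array. None of the 795 member probe sets passed in the pooled comparison (limma, adjusted over 221964 probe sets, of which 0.00315% passed). At an unadjusted p under 0.05 there were 156 (19.6%, against 11.8% of all probe sets), 70 lower (against 5.42% of all probe sets) and 86 higher (against 6.34%). The knockdown and control arrays did not overlap in 29 (3.65%, against 1.44%), of which 10 were lower (0.676% of all probe sets) and 19 higher (0.767%). Among probe sets with a level of at least 9 the shares at an unadjusted p under 0.05 were 20.9% of 479 for the members and 18.6% of 44420 for all. The shares without overlap at that level were 3.55% for the members and 2.53% for all. For shRNA A and shRNA B alone 130 (16.4%, against 9.46%) and 140 (17.6%, against 10.3%) were at an unadjusted p under 0.05, with none called by limma (0% of all probe sets for both).

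The largest difference of the splicing index without overlap was in EIF3E, in probe set 3148638. The log2 value of that probe set was 9.55 and 9.76 with the empty vector, 9.64, 9.59 and 9.72 with the GFP shRNA, 9.47, 9.44 and 9.24 with shRNA A, and 9.13, 9.31 and 9.38 with shRNA B. It was lower on every knockdown array, while the median of the gene was higher. The splicing index averaged 0.78 ± 0.15 (SD, n = 5) on control and 0.21 ± 0.14 (SD, n = 6) on knockdown arrays, a difference of -0.56 (limma, adjusted p = 0.0702). Probe sets 3148607 and 3148610 of the gene also had lower indices, by -0.38 and -0.36 (adjusted p = 0.113 and 0.152), with log2 values that overlapped between the groups. All 3 indices take the gene value of EIF3E with them, whose sign depended on the summary used.

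EIF2S3, the subunit of eIF2 that binds the initiator tRNA, had a gene value that differed by 0.01, and single probe sets apart from it on both sides. Probe set 3971879 had log2 values of 10.81 and 11.05 with the empty vector, 10.90, 10.77 and 10.76 with the GFP shRNA, 10.48, 10.60 and 10.48 with shRNA A, and 10.40, 10.40 and 10.52 with shRNA B. Every knockdown array lay below every control array. The log2 difference was -0.38 and that of the splicing index -0.39 ± 0.06 (SE; limma, adjusted p = 0.0762). On empty vector replicate 1 and GFP shRNA replicate 3 the index was exactly 0, because this probe set was itself the median of the gene. The log2 value of another probe set, 3971901, was higher on every knockdown array than on every control (0.22; 0.203% of all probe sets were), with an index that overlapped.

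EIF5B, the GTPase of subunit joining, had a higher index in probe set 2495927. Its log2 values were 9.30 and 9.18 with the empty vector, 9.36, 9.31 and 9.28 with the GFP shRNA, 9.68, 9.37 and 9.97 with shRNA A, and 9.38, 9.63 and 9.59 with shRNA B. All knockdown arrays lay above all controls, though 2 of them by little. The log2 difference was 0.32 and that of the splicing index 0.36 ± 0.07 (SE; limma, adjusted p = 0.0999). The log2 values of 2495902 (-0.33) and 2495912 (-0.31) of the same gene were lower on every knockdown array than on every control. This held for 1.65% of all probe sets. The indices of both overlapped.

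EIF4EBP2 held the member probe set with the smallest adjusted p, 3250713. Its splicing index was 0.27, 0.40 and 0.38 with shRNA A and 0.20, 0.29 and 0.40 with shRNA B. In the controls it was 0.03 on GFP shRNA replicate 2 and exactly 0 on the other arrays, where this probe set was itself the median of the gene. The difference was 0.32 ± 0.04 (SE; limma, adjusted p = 0.058). With the control index fixed at 0 in this way, its spread there does not measure the variation between arrays. The standard error and the p-value rest in part on that spread. The log2 values, 9.67 ± 0.08 (SD, n = 5) on control and 9.95 ± 0.16 (SD, n = 6) on knockdown arrays, overlapped between the groups.

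The other probe sets among the 10 largest were 3761832 of EIF4E (-0.36, adjusted p = 0.139), 3415659 of EIF4B (0.32, adjusted p = 0.131), 3008145 of EIF4H (0.30, adjusted p = 0.163) and 3591981 of EIF3J (0.28, adjusted p = 0.139). Their log2 values overlapped between the groups in all 4, so the index and not the probe set alone separated the arrays. EIF4E is on chromosome 4, and its 18 probe sets fell into 3 separate runs of probe set numbers, the largest of 14. The number 3761832 lies between those of EIF3C (3686540, chromosome 16) and EIF2S3 (3971879, chromosome X). Whether this probe set reads EIF4E was not tested. Without GFP shRNA replicate 1, 5 member probe sets passed: 3148638 and 2513325 of EIF3E, 3250713 of EIF4EBP2, 3971879 of EIF2S3 and 3362743 of EIF4G2. EIF3E is on chromosome 8, and its 19 probe sets fell into 3 runs, the largest of 17. The number 2513325 is closer to 2495927 of EIF5B, on chromosome 2, than to the other EIF3E probe sets named here. Whether it reads EIF3E was not tested. Without shRNA B replicate 1, 3250713 of EIF4EBP2 passed. Both calls of this probe set carry the limit on its control index given above.

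**Figure D4:**
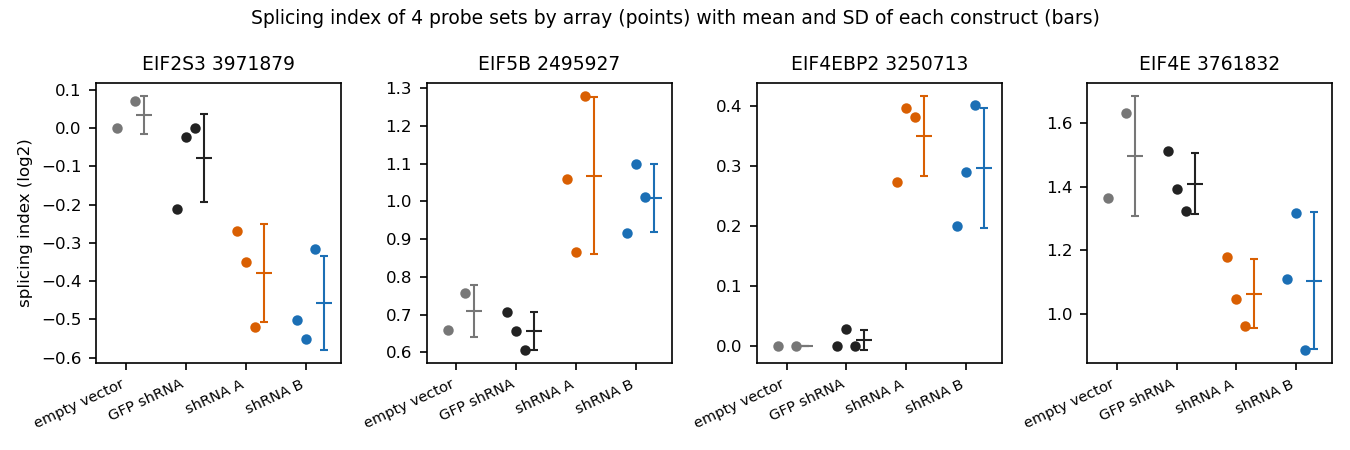
Splicing index (log2, vertical axis, a separate range for each panel) of 4 member probe sets on each array, by construct. Points are arrays and bars the mean and SD of a construct, the knockdown arrays lie apart from the controls in all 4 panels, and the EIF4EBP2 index is exactly 0 on 4 of the 5 control arrays. That of EIF2S3 is exactly 0 on empty vector replicate 1 and GFP shRNA replicate 3. Whether the EIF4E probe set reads that gene was not tested.

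Regulators and relatives of the factors were read from lists. Of the eIF2 kinases and phosphatase subunits all 11 were measured and 0 passed (limma), with 8 means lower (72.7%, against 67.1% of all genes), a median difference of -0.03 and 1 at an unadjusted p under 0.05, lower (9.09%, against 12.8%). The largest were PPP1CB, a catalytic subunit of protein phosphatase 1 (-0.13, adjusted p = 0.303), and EIF2AK4, the kinase that senses uncharged tRNA (-0.08, adjusted p = 0.586). Of the mTORC1 and MNK inputs to the cap 13 of 14 were measured and 0 passed, with 12 means lower (92.3%), a median of -0.06 and 4 at an unadjusted p under 0.05, all lower (30.8%). The largest were MLST8, a subunit of mTORC1 (-0.18, adjusted p = 0.171), and MKNK2, a kinase of the cap-binding protein (-0.15, adjusted p = 0.176). Of 25 paralogues, alternative factors and helpers 22 were measured and 0 passed, with 16 means lower (72.7%), a median of -0.07 and 6 at an unadjusted p under 0.05, all lower (27.3%). The largest were DHPS, the first enzyme of the hypusine modification of eIF5A (-0.26, adjusted p = 0.128), and PABPC1, the cytoplasmic poly(A)-binding protein (-0.20, adjusted p = 0.323). Over all genes 67.1% of means were lower and 12.8% were lower at an unadjusted p under 0.05. Among genes with a level of at least 9 these shares were 73.3% and 22.3%. That level does not match the lists, whose control means ran from 8.11 to 10.38 for the mTORC1 and MNK inputs and from 8.10 to 10.82 for the paralogues.

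The 7 members with the TOP form printed above had differences from -0.20 to 0.02, with a median of -0.18 and 5 lower means. The 23 other members with a start site and a gene value had a median of -0.05 and 16 lower means. EIF3D (-0.20), EIF3F (-0.19), EIF4B (-0.18) and EIF3K (-0.18) lay well below that median, and EIF4A2 (-0.03), EIF2S3 (0.01) and EIF3M (0.02) lay above it. With the mean of the probe sets EIF3D differed by -0.10, EIF3F by -0.16, EIF4B by -0.14 and EIF3K by -0.14. EIF4A2 then differed by -0.08, EIF2S3 by -0.02 and EIF3M by -0.01. Over all genes the 826 with the form had a median difference of -0.03 (75.7% lower) and the 10871 without it one of -0.02 (67.7% lower). The form as searched is a description of the annotated start and not of the start used in these cells.

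Several named differences were smaller when the mean of a gene's probe sets replaced their median. EIF4H then differed by -0.12, EIF3H by -0.06, EIF5 by 0.06 and EIF4G1 by 0.03. EIF4G2 differed by 0.08 and EIF3F by -0.16. Before any summary, 499 of the 795 member probe sets had a lower mean (62.8%, against 61.5% of all probe sets). All knockdown arrays were lower in 22 (2.77%, against 1.65%) and higher in 4 (0.503%, against 0.203%). Among those with a level of at least 9, 4.18% of the member probe sets were lower on all knockdown arrays, against 3.62% of all.

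**Figure D5:**
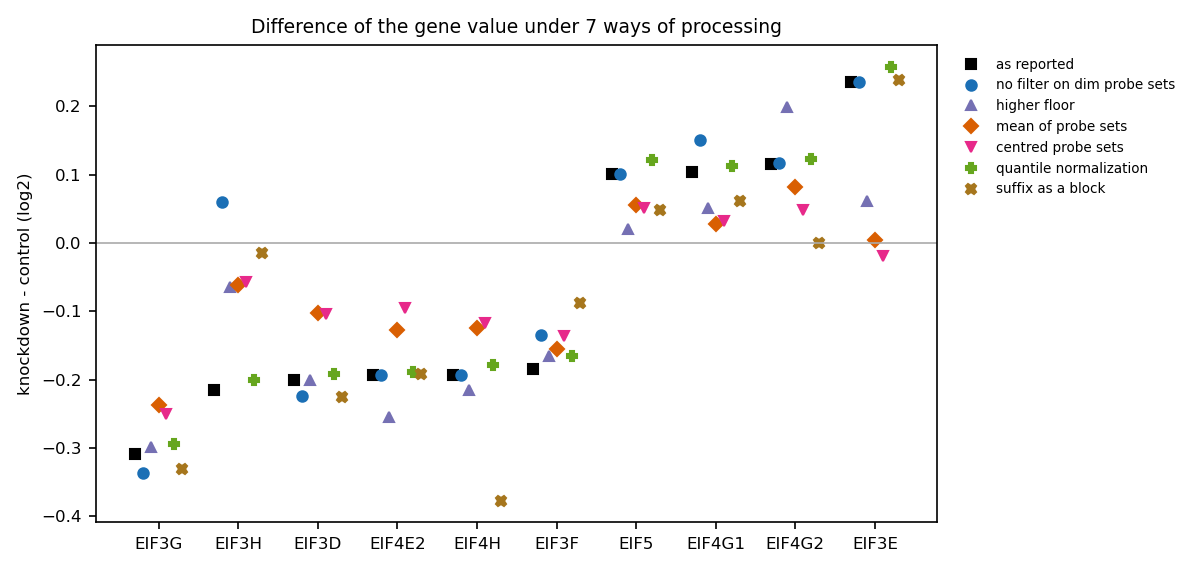
Difference of the gene value between knockdown and control (log2) for the 6 lowest and the 4 highest members under 7 ways of processing. EIF3G stays between -0.24 and -0.34 under those shown, EIF3H crosses 0 without the filter on dim probe sets and EIF3E lies at 0.01 with the mean of the probe sets and at -0.02 with centred probe sets.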

How the data were processed

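Total RNA of 11 T-REx-293 cultures was measured with the Human Exon 1.0 ST array of Affymetrix, per the labels' protocols. The deposited table holds the authors' log2 values of 1399022 probe sets. The genome build behind it, like the software, background correction and normalization, is not given in the sources used here. Array medians lay between 7.902 and 7.905, dim probe sets crowd there, and differences of dim genes may be understated. Missing estimates (13190 to 15431 per array) were left out.

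A probe set was used if it carried 1 gene symbol, was estimated on all arrays and averaged at least 7.91, the median of the table, and a gene needed 4 of them. Gene value and splicing index were fitted with limma 3.58.1 in R 4.3.3 (lmFit, then eBayes with trend). Adjustment was by Benjamini-Hochberg over all genes or probe sets, with 0.05 as threshold. The pooled comparison used 2 levels of the 11 arrays, each shRNA 3, the control constructs 4. The scripts were tested on simulated data.

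The members and lists were chosen with earlier results of these data known. Members are given array by array if they were called, if the knockdown and control arrays did not overlap, or if they were among the 6 lowest or 4 highest differences. Probe sets are named if called, or as the 10 largest index differences without overlap. EIF4EBP1 and the probe sets shared by several symbols were described after their values were seen. Alternatives changed the filter, the summary, the normalization, the background, the variance model, the suffix, the controls, the replicate numbers and each array in turn. No pair of arrays held identical values. The number of arrays limits the precision.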

Additional observations from a re-analysis of the deposited data

Results flagged for a closer look

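Of 72 groups of arrays checked for a single distant value (5 control or 6 knockdown arrays, for each of 36 genes), 5 held one by Dixon's test, where chance gives about 1 in 20. EIF2B5, the catalytic subunit of eIF2B, had 8.23 on shRNA B replicate 2, above the other knockdown arrays at 8.12 to 8.15. EIF3L had 10.11 on shRNA B replicate 1, below the others at 10.26 to 10.34. EIF4B had 10.42 on GFP shRNA replicate 1, above the other controls at 9.98 to 10.08. Empty vector replicate 2 was low for EIF5, with 8.91 against 9.02 to 9.06, and for EIF5B, with 8.42 against 8.64 to 8.68.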

How the results depend on the processing

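No member gene passed in the pooled comparison as reported. Of the 25 alternatives, 20 also gave 0, among them quantile normalization, the suffix as a block and each array left out in turn. The suffix as a block and the arrays without the suffix alone gave the same difference for each member, so they are not separate checks of it. With the floor on dim probe sets raised by 0.5 there were 2 (EIF3G and EIF4E2). There was 1, EIF3G, with the mean of the probe sets, 1 with the signal above the array median plus 32, 1 without a trend in the variance, and 1 with centred probe sets (chosen after seeing the data). EIF3H turned to 0.0603 without the filter on dim probe sets, and EIF3E to -0.0183 with centred probe sets. The cause of these shifts was not tested. The median difference of the 36 genes lay between -0.09 and -0.04 over 22 alternatives. Left-out arrays gave 0 to 5 member probe sets by the splicing index, and its other alternatives gave 0. For shRNA A, shRNA B, the shRNAs against each other and the control constructs, no alternative run gave a called member gene, nor a called member probe set for shRNA A or shRNA B. With the replicate block, 0 member genes and 0 member probe sets passed by limma, with 10 and 147 at an unadjusted p under 0.05. The labels give no pairing, and of 15 pairs of same-numbered arrays of different constructs, whose deviations correlated between -0.148 and 0.269, 5 were above 0.1. Of 30 pairs with different numbers, which correlated between -0.269 and 0.217, 6 were above 0.1. The medians were 0.042 and -0.021. Without GFP shRNA replicate 1, all members that passed by the index are named above. No alternative of the background was run for the splicing index. The limits are the number of arrays, the undocumented normalization and the suffix.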

Other observations

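Other member genes held several probe sets whose splicing index did not overlap between knockdown and control. Over all probe sets 1.44% did not, and 2.53% of those with a level of at least 9. These genes were picked for holding several, so their counts do not describe the members as a set. EIF2S1, the subunit of eIF2 that carries the regulatory phosphorylation, had 3 of 13, all with higher indices in the knockdown arrays: 3541155 (0.25, limma, adjusted p = 0.0909), 3541157 (0.25, adjusted p = 0.132) and 3541166 (0.26, adjusted p = 0.114). EIF2B3 had 3 of 14, all higher by 0.19 to 0.22, EIF3J had 3 of 16, all higher by 0.23 to 0.28, and EIF3F had 3 of 23, all higher by 0.18 to 0.23. The gene values of EIF2B3, EIF3J and EIF3F had lower means in the knockdown arrays (-0.15, -0.15 and -0.19; -0.08, -0.015 and -0.16 when probe sets were averaged, and 0.0038 for EIF3J with centred probe sets), and the log2 values of these probe sets differed by between -0.0082 and 0.13. These indices take the gene values with them. All of these probe sets overlapped between the groups in their log2 values. EIF4B had probe sets on both sides, 3415645 with a lower index (-0.16, adjusted p = 0.238) and 3415659 with a higher one (0.32, adjusted p = 0.131).

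EIF4G2 had 1 probe set, 3362743, whose log2 value was higher on every knockdown array than on every control (0.203% of all probe sets were). Its index differed by 0.33 (limma, adjusted p = 0.173) and overlapped between the groups.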
